A study of Homo sapiens with 2 samples.

Results

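The replication-dependent histone genes were compared between PC3 cells and the cabazitaxel (CBZ)-resistant subline PC3CR. They were chosen by name alone, as all genes whose platform symbol is that of an H1, H2A, H2B, H3 or H4 gene of the histone clusters (older names starting with HIST1H, HIST2H, HIST3H or HIST4H), and each was read from probe sets listed for that gene only. The rule gave 45 genes of the 19775 on the array: 6 H1, 9 H2A, 14 H2B, 7 H3 and 9 H4 genes. PC3 is a human line of castration-resistant prostate cancer. PC3CR was derived from it by passage in CBZ, a taxane that stabilises microtubules, for 18 months, and was profiled after 3 months free of the drug. Both lines were grown in the same serum-containing medium, RPMI-1640, and total RNA of each was hybridised to 1 array. Both samples are labelled with PC3 as the cell line, and the titles tell them apart. PC3CR is 1 subline, and with 1 array per line no difference given here has a replicate check, an error or a p-value. The values are log2 signals made by the authors with the robust multichip average (RMA), so that a difference (PC3CR minus PC3) of 1 is a 2-fold difference.

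Histones are the proteins around which DNA is wound: a core of H2A, H2B, H3 and H4, and the linker histone H1 that binds where DNA enters and leaves it. Most of them are made from intronless genes that lie in clusters, are transcribed mainly in S phase, and give messages that end in a stem-loop in place of a poly(A) tail. The stem-loop binding protein SLBP holds that end during processing, export and translation, and some of these genes can also make polyadenylated messages.

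Histone gene signals were lower in PC3CR, and how messages without a poly(A) tail were labelled is not settled. Of the 45 genes, 26 (57.8%) were at least 2-fold lower in PC3CR, against 6.72% of all genes, and none was at least 2-fold higher, against 9.84% of all genes. The count was 17 of 35, against 6.04% of all genes, on the probe sets whose suffix marks them as specific to 1 gene. Some probe sets listed for several histone genes carry that suffix too, so it does not exclude signal from related genes. The difference was below 0 for 42 genes, above 0 for 2 and exactly 0 for 1. The median difference was -1.19 over the histone genes and -0.04 over all genes, and the histone genes ranged from -4.58 to 0.34. In PC3, 22 of the 45 histone genes had a signal at or above the array's median over genes, and in PC3CR 13 did. In RNA of a whole culture, fewer cells with histone messages and less histone message per cell cannot be told apart. Other S phase genes were higher in PC3CR, and their values are given after those of the histones.

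The difference was larger among genes above the middle of the arrays. The 17 histone genes whose mean of both arrays lay at or above the median over genes had a median difference of -2.25. All 17 were at least 2-fold lower, against 9.86% of all genes in that range. This floor was chosen after seeing the data. Of the 17, H2AC8, H4C8, H4C5 and H3C8 lay below the PC3CR median of 6.05 and reached the floor only through their PC3 signal. The 28 dimmer genes had a median difference of -0.63, and 9 of them were at least 2-fold lower, against 3.58% of dimmer genes. Among them, 9 lay below the lower quartile of both arrays (4.22 in PC3 and 4.10 in PC3CR), where little above background can be measured and differences between arrays are small in general.

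**Figure D1:**
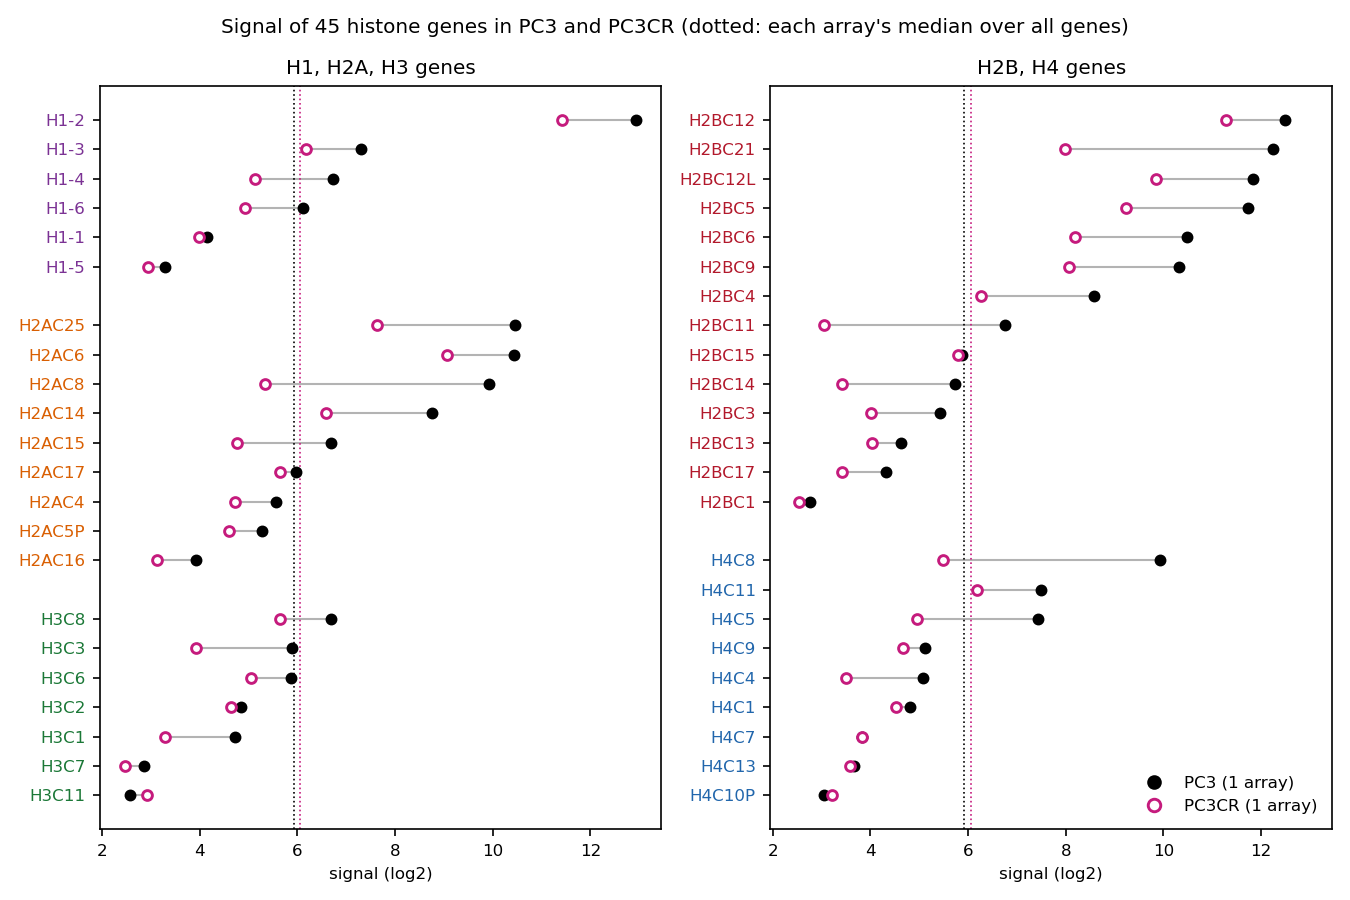
Signal (log2) of each of the 45 histone genes in PC3 (filled) and PC3CR (open), 1 array each, grouped by histone class, with each array's median over all genes as a dotted line. The open point lies left of the filled one for 42 genes, and the widest gaps are those of H2AC8, H4C8, H2BC21 and H2BC11.

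The promoters of 8 of these genes are given here as the letters in front of genes whose values follow: the genes with the widest gaps, H2BC12 as an H2B gene near the median difference of all members, H2BC15 as one that hardly differed, and 1 gene each of the H1 and H3 classes past 2-fold. The sequences come from RefSeq (GRCh38.p14), which held a promoter for 40 of the 45 genes. They run 5′ to 3′ on the gene's strand and end at the base before the start of transcription. Capitals mark exact matches, on either strand, to 3 motifs: the octamer ATTTGCAT, CCAAT and TATAAA. No matches overlapped in these windows. For the H2B class the windows are H2BC21 (chr1:149886683-149886832, minus strand), H2BC11 (chr6:27132796-27132945, minus strand), H2BC12 (chr6:27146859-27147008, minus strand) and H2BC15 (chr6:27838419-27838568, plus strand).
H2BC21: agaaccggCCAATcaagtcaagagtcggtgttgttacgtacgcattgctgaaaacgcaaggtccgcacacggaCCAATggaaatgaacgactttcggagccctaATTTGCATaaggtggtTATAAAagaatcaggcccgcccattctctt
H2BC11: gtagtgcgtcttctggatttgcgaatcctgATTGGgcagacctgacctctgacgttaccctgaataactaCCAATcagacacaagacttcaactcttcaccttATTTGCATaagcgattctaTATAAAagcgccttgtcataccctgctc
H2BC12: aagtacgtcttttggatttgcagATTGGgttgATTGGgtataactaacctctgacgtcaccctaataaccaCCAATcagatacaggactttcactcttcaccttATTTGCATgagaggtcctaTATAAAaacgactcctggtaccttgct
H2BC15: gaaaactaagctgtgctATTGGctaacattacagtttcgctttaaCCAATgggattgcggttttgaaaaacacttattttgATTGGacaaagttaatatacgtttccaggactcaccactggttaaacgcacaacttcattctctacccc

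In H2BC21, H2BC11 and H2BC12 the octamer began 46, 47 and 46 bases before the start and TATAAA began 30, 28 and 27 bases before it, whereas the window of H2BC15 held neither and 3 matches to CCAAT. The remaining windows are those of H2AC8 (chr6:26216671-26216920, plus strand), H4C8 (chr6:26285535-26285684, minus strand), H3C3 (chr6:26045234-26045383, plus strand) and H1-4 (chr6:26156179-26156328, plus strand). H2AC8 is shown with 250 bases because it shares them with H2BC8, which starts 232 bases away on the other strand.
H2AC8: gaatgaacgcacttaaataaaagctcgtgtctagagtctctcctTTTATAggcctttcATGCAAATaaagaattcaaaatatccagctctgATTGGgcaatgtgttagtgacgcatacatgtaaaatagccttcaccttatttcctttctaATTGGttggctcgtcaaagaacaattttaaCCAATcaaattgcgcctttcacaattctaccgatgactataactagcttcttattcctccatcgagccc
H4C8: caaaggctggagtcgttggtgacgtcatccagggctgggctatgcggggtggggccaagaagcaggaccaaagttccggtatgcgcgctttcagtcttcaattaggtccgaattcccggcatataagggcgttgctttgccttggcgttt
H3C3: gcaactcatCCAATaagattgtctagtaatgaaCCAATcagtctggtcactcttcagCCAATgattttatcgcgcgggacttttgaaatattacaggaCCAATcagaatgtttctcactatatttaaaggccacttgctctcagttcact
H1-4: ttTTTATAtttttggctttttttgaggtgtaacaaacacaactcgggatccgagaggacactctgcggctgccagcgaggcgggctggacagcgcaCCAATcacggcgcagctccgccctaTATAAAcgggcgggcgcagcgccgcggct

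The H2AC8 window held the octamer and TATAAA in the direction of H2BC8. H4C8 held none of the 3 motifs, H3C3 held CCAAT 4 times, and H1-4 held CCAAT 54 bases and TATAAA 29 bases before its start, with a further TATAAA on the other strand from 148 to 143 bases before it.

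H1 is the linker histone, and its 6 measured genes had a median difference of -1.15. H1-2, a main somatic form, had a high signal on both arrays, 12.93 in PC3 and 11.42 in PC3CR, which is -1.51 or 2.85-fold. H1-4, another somatic form, had 6.72 in PC3 and 5.14 in PC3CR, 3.00-fold lower. H1-3 had 7.30 and 6.18 (-1.11), and H1-6, known as the testis form, had 6.10 and 4.92 (-1.19). These 4 were the H1 genes at least 2-fold lower in PC3CR. H1-1 (4.14 in PC3 and 3.98 in PC3CR) and H1-5 (3.28 and 2.94) were dim on both arrays and differed by -0.16 and -0.34.

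H2A genes code for the core histone that pairs with H2B, and 5 of the 9 measured were at least 2-fold lower, with a median difference of -1.38. H2AC8 had the most negative difference of the 45 genes: its signal was 9.92 in PC3 and 5.34 in PC3CR, 23.9-fold lower, which took it from well above the median of the array to below it. It ranked 54 of 19775 genes from the most negative difference. H2AC25, the only member in the HIST3 cluster on chromosome 1, had 10.45 in PC3 and 7.62 in PC3CR (-2.83). Its other probe set, dimmer at 6.06 and 5.17, differed by -0.89. H3-4, an H3 gene of that cluster whose name lies outside the rule, had 5.11 in PC3 and 3.61 in PC3CR (-1.51). H2AC14 had 8.76 and 6.58 (-2.18).

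H2AC15 had 6.70 in PC3 and 4.76 in PC3CR (-1.93), with -1.13 on its other probe set. H2AC6 stayed above the median of the array in PC3CR, with 10.44 in PC3 and 9.06 in PC3CR, 2.60-fold lower. The other 4 H2A genes, H2AC4, H2AC16, H2AC17 and the pseudogene H2AC5P, were also lower, by less than 2-fold, from -0.83 to -0.34, and H2AC17 alone of these reached the median of the PC3 array (5.97).

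H2B genes code for the partner of H2A, and 10 of the 14 measured were at least 2-fold lower, with a median difference of -2.12. The order of the classes depended on the probe sets and genes taken. On probe sets whose suffix marks them as specific to 1 gene the median was -1.19 for H2B and -1.31 for H1. Among genes with a mean at or above the median over genes it was -2.30 for 7 H2B, -2.51 for 4 H2A and -2.46 for 3 H4 genes. Of these, H2AC8, H4C8 and H4C5 reached that floor only through their PC3 signal, so the H2A and H4 values are partly set by the floor. H2BC21 was the only gene of the HIST2 cluster on chromosome 1 with a probe set listed for it alone. It had 12.24 in PC3 and 7.99 in PC3CR, 19.0-fold lower. H2BC11 had 6.76 in PC3 and 3.05 in PC3CR, 13.0-fold lower and below the lower quartile of the PC3CR array. H2BC5 had 11.73 and 9.23 (-2.51), and its other probe set differed by -2.10. All 3 started at or above the median of the PC3 array.

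H2BC4 (8.58 in PC3 and 6.26 in PC3CR), H2BC6 (10.49 and 8.18) and H2BC9 (10.31 and 8.07) had differences between -2.32 and -2.25. H2BC12L, a histone gene on chromosome 21 outside the clusters, had 11.84 in PC3 and 9.86 in PC3CR (-1.99). H2BC12 was bright in PC3 and stayed bright in PC3CR, with 12.48 and 11.29, which is -1.19 or 2.29-fold. As measured, the H2B genes of high signal were lower by unequal amounts, which with 1 array per line cannot be told from error. H2BC21, H2BC5, H2BC6, H2BC9 and H2BC12L were read on probe sets whose suffix does not mark them as specific to 1 gene. So were H2AC6, H2AC14, H3C2, H3C8 and H4C11 of the other classes.

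H2BC14 had 5.74 in PC3 and 3.42 in PC3CR (-2.31), just under the median of the PC3 array, and H2BC3 had 5.43 and 4.01 (-1.42). H2BC13 and H2BC17 were lower by less than 2-fold, at -0.60 and -0.91. H2BC15 had almost the same signal in PC3 and PC3CR, 5.87 and 5.80. H2BC1, known as a testis histone gene, was near the bottom of both arrays at 2.76 and 2.53.

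**Figure D2:**
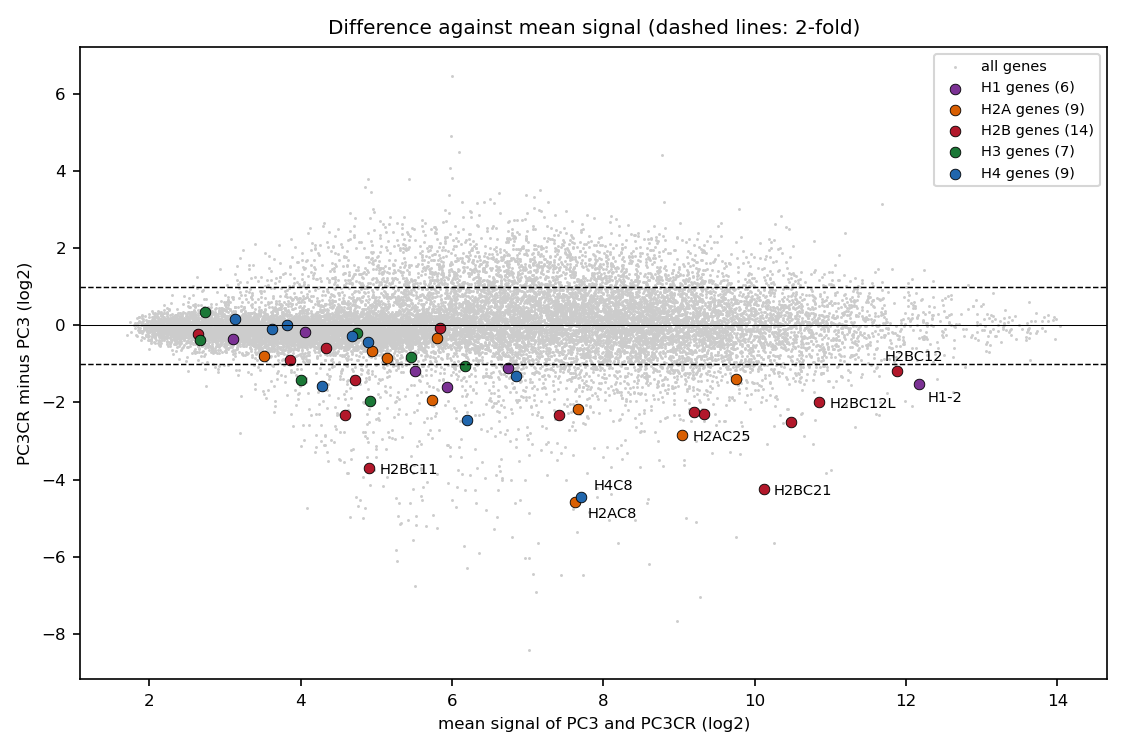
Difference (PC3CR minus PC3, log2) against mean signal (log2) for all 19775 genes (grey) and the 45 histone genes coloured by class, with dashed lines at 2-fold. No histone gene lies above the upper line, and the histone genes of high mean signal lie below the lower line.

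H3 genes were dim as measured by probe sets for 1 gene: H3C8 was the only one of 7 with a mean at or above the median. Its signal was 6.69 in PC3 and 5.65 in PC3CR (-1.04). H3C3 had 5.89 in PC3 and 3.93 in PC3CR, 3.91-fold lower, and H3C1 had 4.71 and 3.30 (-1.42). These 3 H3 genes were at least 2-fold lower, and the median over the 7 was -0.82. H3C6 had 5.87 and 5.05 (-0.82) on its brighter probe set and 5.80 and 2.63 (-3.16) on its other one, so its place on either side of 2-fold depended on the probe set. H3C2 and H3C7 differed by -0.21 and -0.39. H3C11 was 0.34 higher in PC3CR, at 2.57 and 2.91, both below the lower quartile.

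H4 genes split into 4 that were at least 2-fold lower and 5 that were not, with a median of -0.44. H4C8 had 9.93 in PC3 and 5.48 in PC3CR, 21.8-fold lower, and its other probe set had 9.14 and 5.31 (-3.82). H4C5 had 7.42 in PC3 and 4.96 in PC3CR (-2.46), and H4C11 had 7.49 and 6.19 (-1.31). H4C4, dimmer, had 5.07 and 3.50 (-1.57). The other 5 H4 genes were dim on both arrays. H4C9 and H4C1 differed by -0.44 and -0.28. H4C13 differed by -0.09, which became 0.02 with loess centring and 0.03 with quantile normalization, H4C7 had the same value of 3.82 on both arrays, as 480 genes had equal values, and the pseudogene H4C10P was 0.16 higher.

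All 6 genes with several probe sets were lower on each of them. Because histone genes of 1 class are nearly alike in their coding sequence, many more probe sets are listed for several of them, and these 20 probe sets stood outside the choice of members. They were lower too: 18 of 20 had a difference below 0 and 16 were at least 2-fold lower, 1 was at least 2-fold higher, and the median was -2.50. Over all 54613 probe sets, 5.16% were at least 2-fold lower and 7.67% at least 2-fold higher. They share targets with the members and with each other and add no samples.

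The lowest of them were listed for H2BC11 and H2BC8. The first went from 11.49 in PC3 to 3.48 in PC3CR (-8.01), the fourth most negative of all 54613 probe sets, and the second had 10.55 and 4.97 (-5.58). H2BC8 is the gene that shares its promoter with H2AC8, and H2BC11 on a probe set of its own was 13.0-fold lower. Probe sets listed for H2AC19 and H2AC18, in HIST2, had signals of 13.54, 13.04 and 6.75 in PC3 and differed by -2.43, -3.30 and -2.74. A probe set listed for 10 H3 genes had 9.90 in PC3 and 6.16 in PC3CR (-3.74). One probe set listed for 10 H3 genes and H2AC7 had 8.40 and 3.02 (-5.37).

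The H4 class had 6 shared probe sets, with differences in both directions. Of these, 3 were at least 2-fold lower, with differences of -3.22, -1.52 and -1.11, and 2 more were lower by 0.93 and 0.18. The sixth, listed for 14 H4 genes, was higher in PC3CR, with 8.58 in PC3 against 9.70 in PC3CR (1.12). The transcript that the platform table gives as its source is that of H4C3 in RefSeq, a gene with no probe set of its own here, and the signal cannot be assigned to 1 gene. The remaining exception was a dim H3 probe set at 3.73 and 3.79.

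**Figure D3:**
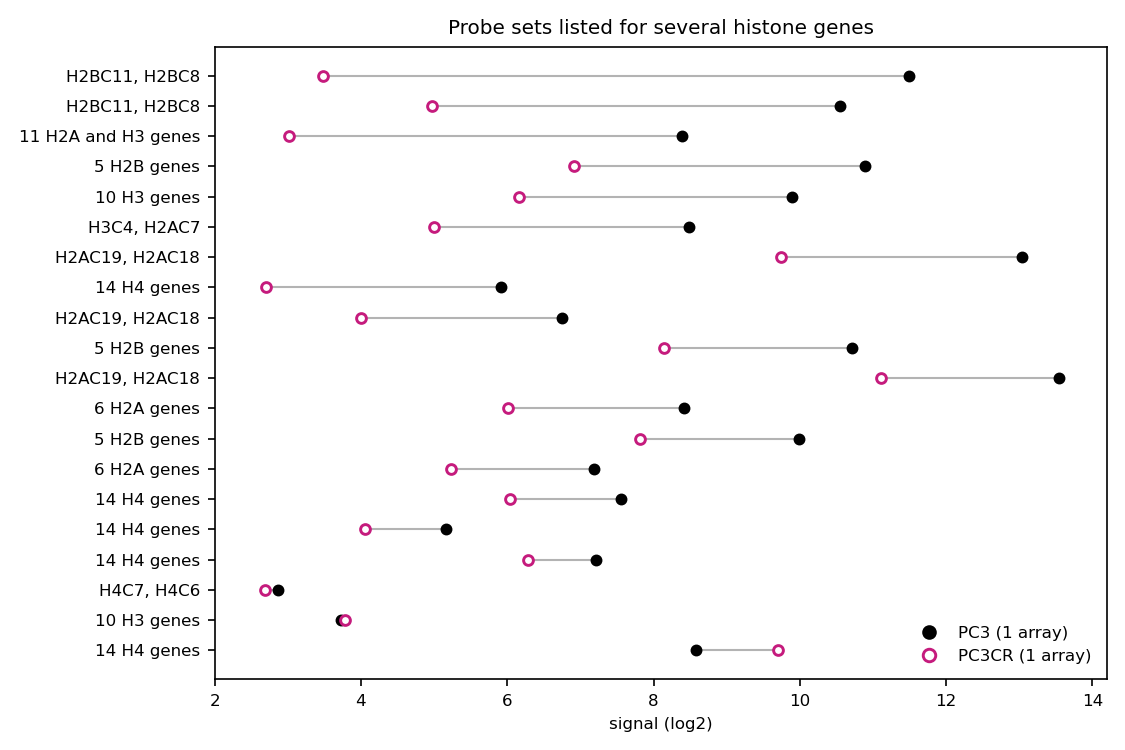
Signal (log2) in PC3 (filled) and PC3CR (open) of the 20 probe sets listed for several histone genes, ordered by difference and labelled by the genes or by their number and class. The open point lies left of the filled one in 18 rows, and the lowest row, listed for 14 H4 genes, shows 8.58 in PC3 and 9.70 in PC3CR.

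HIST1 on chromosome 6 held 42 of the 45 genes, with a median difference of -1.15. In RefSeq order the HIST1 genes form 3 runs, separated by at least 10 genes that are no histones. The first run, from H2BC1 to H4C8 among measured genes, had 26 measured genes and a median of -1.40, and 17 of them were at least 2-fold lower. The second, with H2BC11, H2BC12 and H4C9, had a median of -1.19, and 2 of the 3 were at least 2-fold lower. The third had 13 measured genes and a median of -0.60, with 4 at least 2-fold lower, H2AC14, H2BC14, H4C11 and H2AC15. This run was mostly dim, and only H2AC14 and H4C11 in it had a mean at or above the median over genes. Its smaller median therefore cannot be told apart from an effect of low signal. The runs overlapped in their values, from -4.58 to 0.00 in the first, -3.71 to -0.44 in the second and -2.31 to 0.34 in the third.

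Genes of other kinds between the first and the last HIST1 gene had a median near 0. The 28 that were measured had a median difference of 0.01 and a range from -0.88 to 1.32. None was at least 2-fold lower, and BTN3A2 (8.18 in PC3 and 9.36 in PC3CR) and HCG11 (4.77 and 6.10) were at least 2-fold higher, which is 7.14% of them. The shares of all genes were 6.72% lower and 9.84% higher, and little can be read from 28 genes at such shares. HMGN4, a nucleosome-binding protein gene between the runs, had 10.66 and 10.94.

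**Figure D4:**
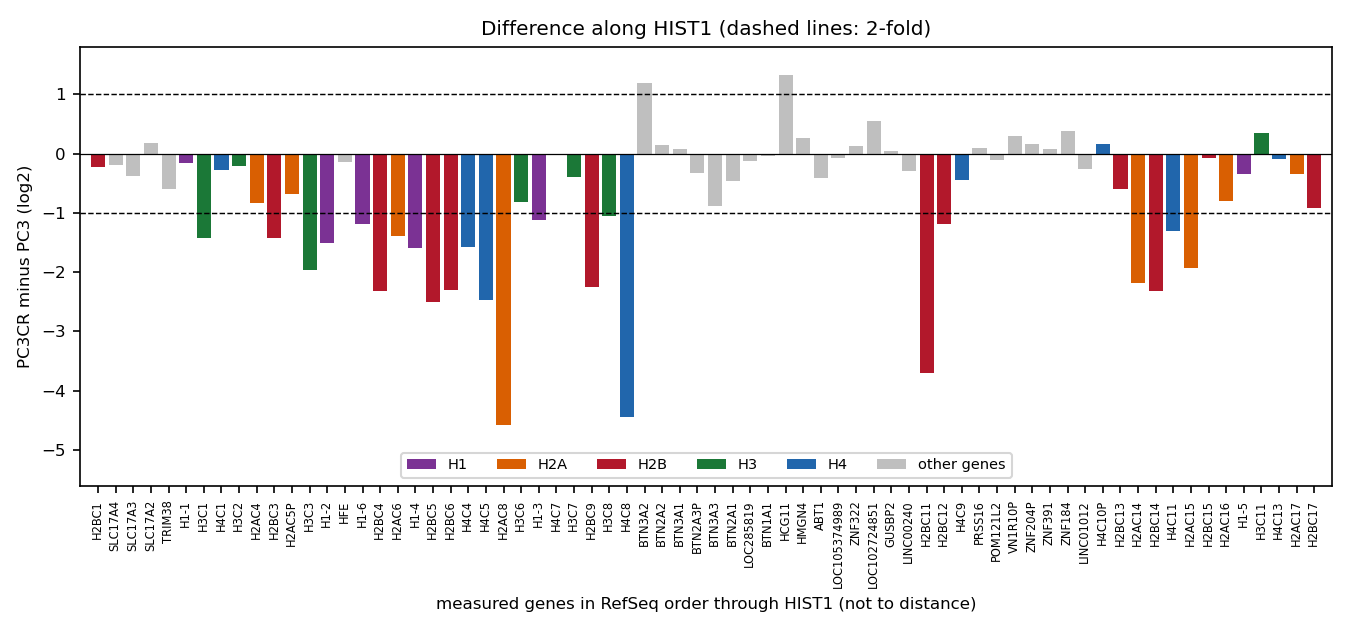
Difference (PC3CR minus PC3, log2) of the 42 measured histone genes of HIST1, coloured by class, and of the 28 measured genes of other kinds between them (grey), in RefSeq order and not to distance. Histone bars reach -4.58 while no grey bar passes the lower 2-fold line.

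The octamer, to which the factor OCT1 is known to bind in H2B promoters, was looked for in the 250 bases before and 50 bases after each start. It was present in 10 of 13 measured H2B genes with a promoter in RefSeq and in 6 of 8 H2A genes, and in none of the measured H1, H3 or H4 genes, against 2.19% of 27305 genes with a promoter. CCAAT was present in 35 of 40 histone genes, against 39.7% of all genes, and the H4 class had it in 2 of 7. TATAAA was present in 27 of 40, against 14.0%. H2B genes with the octamer had differences from -4.25 to -0.22 with a median of -2.27, and the 3 without it, H2BC5, H2BC13 and H2BC15, had -2.51, -0.60 and -0.08. Among H2A genes the 6 with it ranged from -4.58 to -0.34, and the 2 without it, H2AC25 and H2AC15, had -2.83 and -1.93. The values with and without the motif overlapped in both classes.

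H2A and H2B genes often lie head to head and share the stretch between their starts. RefSeq held 11 such pairs with overlapping promoter windows, and both genes of 4 pairs were measured on probe sets of their own. H2AC14 and H2BC14, with 244 bases between their starts, differed by -2.18 and -2.31. H2AC6 and H2BC4, 245 bases apart, differed by -1.38 and -2.32. H2AC17 and H2BC17 differed by -0.34 and -0.91. In the fourth pair, 193 bases apart, H2AC15 was at least 2-fold lower (-1.93) and H2BC15 was not (-0.08), so genes that share a promoter region differed in 1 of the 4 pairs by whether they passed 2-fold.

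Genes that make and process histone messages showed no common shift. Of 26 measured genes of histone transcription and message end processing, 6 passed 2-fold upward and 4 downward in PC3CR, and the median difference was 0.18. These are 23.1% and 15.4% of the list, against 9.84% and 6.72% of all genes. SLBP had 9.71 in PC3 and 11.03 in PC3CR, 2.50-fold higher while the histone signals were lower. Whether those signals came from the stem-loop messages that SLBP binds was not tested. CDK2 and CCNE2, a kinase and a cyclin, drive entry into S phase and act on the histone locus factor NPAT. Their differences were 1.70 and 1.51. CCNE1, the other E cyclin on the list, had 8.22 in PC3 and 8.13 in PC3CR (-0.09). NPAT itself had 7.64 and 7.78. ERI1, a nuclease that trims and degrades the histone stem-loop end, had 7.81 and 9.34 (1.53).

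NCBP2, the small subunit of the cap-binding complex, had 11.11 in PC3 and 9.18 in PC3CR (-1.93), whereas NCBP1, its large subunit, had 6.78 and 8.17 (1.39). ZNF473 and LSM11, parts of the machinery that cuts histone messages with the U7 particle, were lower at -1.30 and -1.02, and CSTF2 at -1.06. HINFP, which activates H4 genes, had 8.07 and 7.07 and came within rounding of 2-fold lower. CDK2 had probe sets of both signs, from -0.31 to 1.85.

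Histone chaperones, which carry new histones to DNA, were mostly a little higher in PC3CR. Of 26 measured, 21 had a difference above 0. Above 0 were 8929 of all 19775 genes. Past 2-fold, 4 chaperones were higher and SPTY2D1 alone (-1.01) was at least 2-fold lower. The shares of 15.4% and 3.85% were near those of all genes, 9.84% and 6.72%. The median was 0.32. HJURP, which deposits the centromeric H3, had 7.06 in PC3 and 8.94 in PC3CR (1.88). ASF1B and ASF1A, which hand over H3 and H4, had differences of 1.29 and 1.23, and NASP, which stores H3 and H4, of 1.02.

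Histone variants listed here as replication-independent had a median difference of 0.30 over 12 measured genes. Of these, 3 were at least 2-fold higher, against 9.84% of all genes. None was 2-fold lower or more, against 6.72% of all genes, and little can be read from 12 genes at such a share. They were H1-10 (8.15 in PC3 and 9.48 in PC3CR), H2AZ2 (10.26 and 11.43) and CENPA, the centromeric H3, with 7.05 and 8.17. H2AX, which marks breaks in DNA when phosphorylated, had 8.80 and 8.31 (-0.49).

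S phase genes other than histones were higher in PC3CR: 24 of 41 measured were at least 2-fold higher, against 9.84% of all genes, none was 2-fold lower or more, and the median was 1.08. E2F8, a repressor of the E2F family, had 5.05 in PC3 and 7.42 in PC3CR (2.38). UHRF1, which maintains DNA methylation behind the fork, had 7.48 and 9.71 (2.23). MCM4, a subunit of the replicative helicase, and HELLS, a chromatin remodeller, had differences of 1.76 and 1.70. Of the 24 genes, 15 had several probe sets, and in 4 of these, CLSPN, GINS2, MCM4 and POLD3, a probe set lay below 0. SLBP, CCNE2 and CASP8AP2 stand on this list and on that of histone messages, and NASP, MCM2 and CHAF1B on this list and on that of chaperones. Whether the share of cells in S phase differed was not tested.

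**Figure D5:**
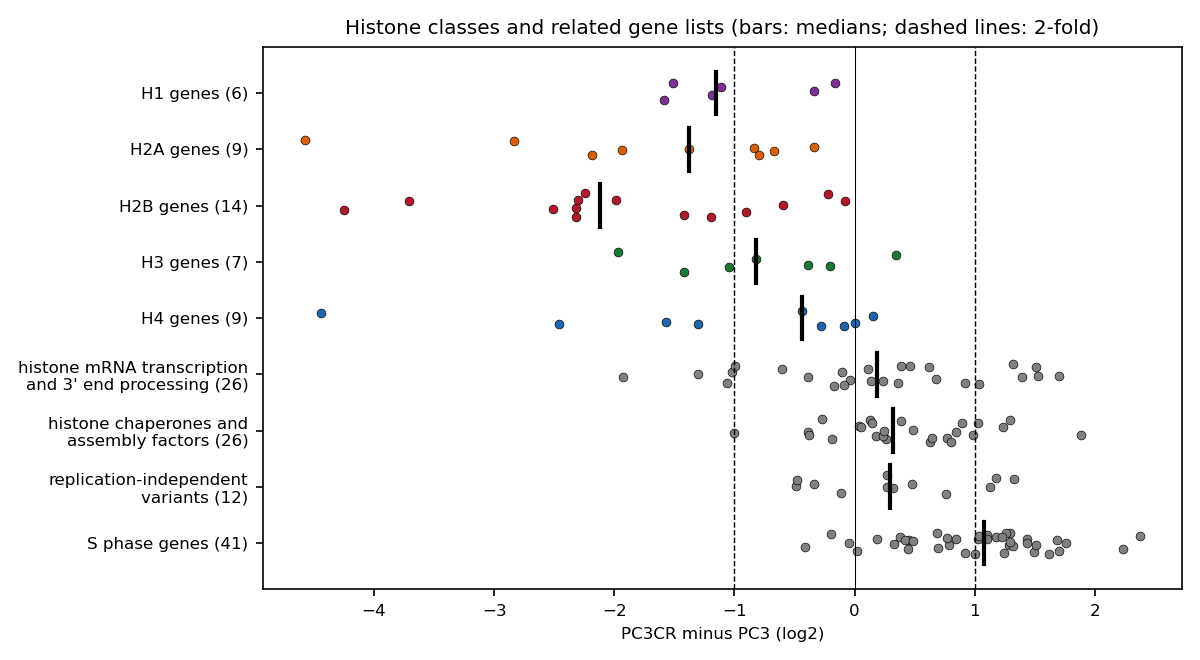
Difference (PC3CR minus PC3, log2) of each measured gene in the 5 histone classes (coloured) and in 4 lists of related genes (grey), with medians as black bars, dashed lines at 2-fold and the number of genes in brackets. The medians of the histone classes run from -2.12 (H2B) to -0.44 (H4), and those of the lists from 0.18 to 1.08 (S phase genes). The order of the classes changes with a floor on the mean signal, which leaves 3 H4 genes (-2.46) and 7 H2B genes (-2.30). Of those H4 genes, H4C8 and H4C5 reached the floor only through PC3.

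Both arrays carried the keratins of an epithelial line, KRT8 at 9.72 in PC3 and 9.79 in PC3CR and KRT18 at 11.69 and 12.36. KRT19 (-3.28), EPCAM (-2.49) and CD44 (-1.89) were lower in PC3CR and VIM (1.21) higher. The other probe set of KRT19 differed by -0.98, and the 13 probe sets of CD44 ranged from -2.26 to 0.14. Of the markers that neither culture should carry, PTPRC (3.03 and 2.95) and COL3A1 (2.92 and 3.52) were near the bottom of the arrays. PDGFRB and CD3E had signals from 5.46 to 5.74, below the medians. COL1A1 had 8.69 and 6.56 on its brightest probe set, and its 5 probe sets differed from -2.12 to 0.03. Of the androgen receptor axis, KLK2 was dim (4.23 and 4.26), TMPRSS2 had 6.23 and 5.78, and KLK3, a gene that PC3 is known to lack, had 8.04 and 8.08. The part of these shifts in the histone result was not tested. The methods and the labels name different labelling kits, and the identifiers are those of another array than the methods name, so how messages without a poly(A) tail were labelled is not settled and its part was not tested.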

How the data were processed

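Total RNA of PC3 and of PC3CR was profiled on 1 array each. The authors deposited log2 values, 1 for each of 54613 probe sets, made with RMA, which brings the arrays to like distributions, so that the cells' total RNA cannot be compared. Besides RMA, the submitters' processing notes list Transcriptome Analysis Console 3.1 and Affymetrix Expression Console 1.4. The methods give the array as Human Gene 1.0 ST, but the identifiers belong to the Human Genome U133 Plus 2.0. Having 1 array per line limits the precision of every value.

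Symbols came from the platform annotation, updated through Entrez IDs to RefSeq (GRCh38.p14). Of the probe sets, 41091 had 1 symbol, 1801 had several and 11721 were unnamed here. Each gene was read from whichever of its probe sets had the higher mean signal. HIST3H3, which now carries a name outside the rule, was not a member. The log2 signal of PC3 was subtracted from that of PC3CR, genes were counted at 2-fold, and no test was made, because 1 array per line gives no spread. Members, lists and alternatives were chosen with earlier results of these data known. Named by rule were members past 2-fold whose brighter array reached that array's median, in each class the 2 members with the highest mean, members whose probe sets had opposite signs, the 2 furthest from 0 of the dimmer members past 2-fold, in each list up to 4 genes furthest from 0 past 2-fold, and the markers. All other genes were named after their values were seen. Not all genes of the lists were measured: 26 of 27 of histone messages, 26 of 27 chaperones, 12 of 17 variants and 41 of 43 S phase genes were. The steps were tested on simulated data. The scripts ran in Python 3.11.15 with pandas 2.3.3 and numpy 2.4.6, drew with matplotlib 3.10.9, and used the lowess of statsmodels 0.14.6.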

Additional observations from a re-analysis of the deposited data

How the results depend on the processing

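With 1 array per line no setting can be weighed against replicate error, a value was taken as moved past 0.1 on the log2 scale, and a count past 1.5 times. All 80 alternative medians of histone genes, classes and clusters stayed below 0. Of 128 alternative values, 84 did not move and 44 did.

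With probe sets averaged per gene the medians were -1.38 for histone genes, -1.31 for H1, -1.04 for H3, -1.86 for the HIST3 member and 0.89 for S phase genes. With a floor on the brighter array, which keeps dim genes only where they differ, they were -2.08 for histone genes, -1.35, -2.06, -2.31, -1.04 and -2.46 for H1, H2A, H2B, H3 and H4, -1.93 for HIST1 and 0.62 for variants. Loess centring with a span of 0.4 gave 0.063 and quantile normalization 0.059 for the list of histone messages, and quantile normalization gave -1.26 for H1. Median centring moved nothing.

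Probe sets marked by their suffix as specific to 1 gene gave -0.91 for histone genes. Of 35 such genes, 17 were at least 2-fold lower, against 6.04% of all genes on such probe sets. The medians were -1.31 for H1, -0.83 for H2A, -1.19 for H2B and -0.87 for HIST1. Some probe sets listed for several histone genes carry that suffix too. Adding the 20 probe sets of several histone genes to the 45 genes gave -1.51, with 42 lower and 1 higher at 2-fold. Of all probe sets, 5.16% were lower and 7.67% higher. The medians were then -2.07 for H2A, -2.30 for H2B, -0.93 for H4, -1.40 for HIST1 and -3.02 for HIST2. At 4-fold, 12 of the 45 genes were lower, against 395 of all 19775 genes.

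Chosen after seeing the data, a floor on the mean of both arrays gave -2.25 for 17 histone genes. All 17 were at least 2-fold lower, against 9.86% of all genes in that range. Medians were -1.31 for 2 H1, -2.51 for 4 H2A, -2.30 for 7 H2B and -2.46 for 3 H4 genes. The 1 H3 gene, H3C8, had -1.04. H2AC8, H4C8, H4C5 and H3C8 reached the floor only through PC3. The medians were -2.21 for HIST1, 0.49 for chaperones and 0.62 for variants. Without the 2 pseudogenes the medians were -1.31 for histone genes, -1.66 for H2A and -0.87 for H4. Dim probe sets limit what can be seen of H3 and H4.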
